A study of Rattus norvegicus with 30 samples.

Results

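The cytochrome P450 genes outside family 1 were followed in rat lung during severe acute pancreatitis (SAP) and its treatment with dexamethasone (DEX) or emodin. Members were the protein-coding genes whose symbol is Cyp followed by a number, a letter and an optional number, without Cyp1a1, Cyp1a2 and Cyp1b1. The rule found 58 genes among the 22914 genes with counts, of which 19065 were protein-coding. The 58 genes carried 55 symbols, since Cyp3a9, Cyp4a2 and Cyp2c13 were each attached to 2 genes. Cyp51, Cyp2ab1 and Cyp2c6v1 begin in the same way but did not match and were not members.

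Cytochrome P450 enzymes are heme proteins that use oxygen and electrons from a reductase to oxidise fat-soluble molecules. Families 2 and 3 are best known for foreign compounds, family 4 and the Cyp2j enzymes for fatty acids and eicosanoids, and the remaining families for steroids, bile acids, retinoic acid and vitamin D. In lung the enzymes sit mainly in club cells, type 2 cells, endothelium and macrophages, and club cells use several of them to activate inhaled toxicants such as naphthalene. Dexamethasone acts through the glucocorticoid receptor, which controls several P450 genes in liver. Emodin is a plant anthraquinone.

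Lung tissue of male Sprague Dawley rats, 8 weeks old, gave 1 library per animal, and 3 rats formed each of 10 groups, killed 6 h or 24 h after surgery. Rats of the Sham groups had the pancreas turned over, and Con rats received saline in the biliopancreatic duct. SAP, DEX and Emo rats received 5.0% sodium taurocholate there, a bile salt that injures the pancreas, so that both drug groups also carried the injury. DEX rats were then given 10 mg/kg dexamethasone into a vein, and Emo rats emodin into the stomach, 2 h and 12 h after taurocholate, so the 6 h rats had received 1 dose. The emodin dose is 40 mg/kg in the treatment protocol and 10 mg/kg in the sample descriptions. Groups without a drug received saline into a vein and the carboxymethylcellulose vehicle into the stomach. No group received a drug without taurocholate.

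Libraries held 16813949 to 34692306 reads on genes. The authors report a lower share of uniquely mapped reads in every SAP, DEX and Emo library than in any Sham or Con library. The part of this difference in the SAP against Sham values was not tested. The labelled tissue was checked with its defining transcripts. The type 2 cell gene Sftpc averaged 16152 to 27888 FPKM and the club cell gene Scgb1a1 24327 to 40579 FPKM over the groups. FPKM is fragments scaled by transcript length and by sequencing depth, so that levels can be compared between genes. Summed liver markers (5 genes with FPKM) were 5.37 to 42.9 FPKM in any library, most of it Serpina1, and the liver gene Alb averaged at most 2.17 FPKM in any group. Summed heart muscle markers ranged from 4.47 to 162 FPKM, summed fat markers from 15.8 to 128 FPKM and summed neutrophil markers from 96.7 to 16481 FPKM. In bulk lung tissue, fewer cells of a type and less RNA per cell cannot be told apart. Glucocorticoid target genes served as a check of the DEX labels: their summed level was 884 to 911 FPKM in DEX-6h against 516 to 670 FPKM in SAP-6h, and 690 to 772 FPKM in DEX-24h against 350 to 505 FPKM in SAP-24h. The Sham-24h libraries, at 285 to 699 FPKM, overlapped those of DEX-24h.

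A small number of P450 genes made up nearly all of the family's transcripts. Of the 58 genes, 21 averaged at least 1 FPKM over the 30 libraries, 10 averaged between 0.1 and 1 FPKM and 27 less than 0.1 FPKM, and 28 had reads in all 30 libraries. Cyp2b1, a broad-range drug oxidase, led with 261 FPKM, followed by Cyp4b1, a lung enzyme of fatty acids and furans, with 157 FPKM. Cyp2e1, the oxidase of ethanol and small solvents, averaged 89.4 FPKM, Cyp2f4, which activates naphthalene in club cells, 86.5 FPKM, Cyp2a3, an airway enzyme, 47.4 FPKM, and Cyp4v3, a fatty acid hydroxylase, 26.9 FPKM. These 6 genes gave 82.5% to 89.3% of the summed FPKM of all members in each library.

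**Figure D1:**
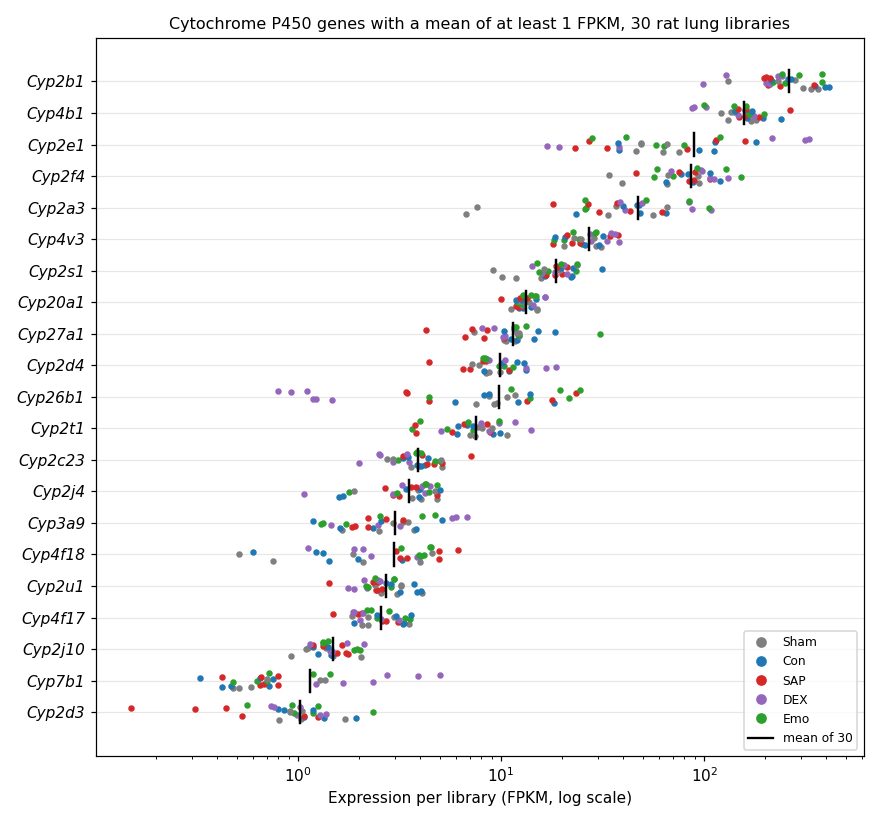
Expression of the 21 P450 genes that averaged at least 1 FPKM, one point for each of 30 libraries on a log axis of FPKM, coloured by treatment, with the mean as a black bar. Cyp2b1 had the highest mean (261 FPKM), and the DEX points of Cyp26b1 lie apart on the left, between 0.80 and 1.47 FPKM.

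Among the other members with a mean of at least 1 FPKM, 6 lay between 7.56 and 18.6 FPKM. Cyp2s1 averaged 18.6 FPKM, Cyp20a1, whose substrate is not known, 13.2 FPKM, the mitochondrial sterol hydroxylase Cyp27a1 11.5 FPKM, Cyp2d4 9.92 FPKM, the retinoic acid hydroxylase Cyp26b1 9.74 FPKM and Cyp2t1 7.56 FPKM. The remaining 9 lay between 1.03 and 3.89 FPKM. Cyp2c23, an arachidonic acid epoxygenase, averaged 3.89 FPKM, Cyp2j4 3.54 FPKM, Cyp3a9 2.99 FPKM, Cyp4f18 2.96 FPKM, Cyp2u1 2.70 FPKM, Cyp4f17 2.55 FPKM, Cyp2j10 1.49 FPKM, the oxysterol hydroxylase Cyp7b1 1.14 FPKM and Cyp2d3 1.03 FPKM. By role, 10 of 23 genes of the xenobiotic families reached 1 FPKM, 7 of 18 genes for fatty acids and eicosanoids, 2 of 5 for cholesterol and bile acids, 1 of 3 for retinoic acid, and none of 5 for steroid hormones or of 3 for vitamin D. Several enzymes known mainly from liver and steroid-making tissues were nearly absent: the bile acid enzyme Cyp7a1, the steroid enzymes Cyp17a1 and Cyp19a1 and the liver enzyme Cyp2c11 had 4, 6, 6 and 39 reads in all 30 libraries.

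The summed FPKM of all 58 genes was highest in Con-6h, at 933 ± 70.3 (SD, n = 3), and lowest in Sham-24h, at 619 ± 109. SAP-6h lay at 728 ± 70.0, DEX-6h at 684 ± 52.4, SAP-24h at 710 ± 29.5, DEX-24h at 853 ± 99.5 and Emo-24h at 784 ± 45.0. The single sums of Sham-6h (635 to 883), Emo-6h (667 to 1008) and Con-24h (645 to 884) overlapped those of most other groups, and sums were not tested. Variation between rats of 1 group differed widely among genes. Among the 21 genes with at least 1 FPKM, the SD of log2 FPKM within groups was lowest for Cyp20a1, at 0.14, and highest for Cyp2a3, at 0.96, whose libraries differed by up to 8.63-fold within 1 group.

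Reads allowed a test for 34 of the 58 genes. The other 24 had 1 to 112 reads in all 30 libraries together and at most 14 in any library. They did not pass the read filter and were not tested in the main fit. edgeR's quasi-likelihood test was fitted to all 15934 genes that passed the read filter, and a gene was called at a Benjamini-Hochberg adjusted p under 0.05 and a change of at least 2-fold. By a test for any difference among the 10 groups with no fold limit, 17 of the 34 genes varied, which is 50%, against 56.6% of all genes tested. In 1 or more of the 14 pairwise and time comparisons, 14 members were called (41.2%), against 22.5% of all genes tested.

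Con against Sham asked about the saline infusion, and SAP against Sham about the duct infusion and the pancreatitis together. SAP was not compared with Con, and no group was left without an operation. No member was called in Con-6h against Sham-6h (background 0% of all genes), in Con-24h against Sham-24h (background 1%) or in SAP-6h against Sham-6h (background 0.22%) by edgeR. In each of the 3, 2 members had an unadjusted p under 0.05 with a 2-fold change, and DESeq2 called none. The backgrounds are for adjusted edgeR calls, so the unadjusted counts were not set against all genes. In SAP-24h against Sham-24h, 2 of the 34 genes were called, both lower (5.88% against a background of 5%). With 1 library left out the count was 1 to 4. It was 0 with these groups fitted alone, a fit that called only 3 genes in all. The 2 called members were Cyp2d3, with a log2 fold change of -1.52 (SE 0.41, adjusted p = 0.0185) by edgeR, and Cyp39a1, an oxysterol hydroxylase, with -1.32 (SE 0.34, adjusted p = 0.0155) by edgeR. From SAP-6h to SAP-24h, 2 genes were called, both lower (background 2.42%): Cyp2d3, with -1.55 (SE 0.41, adjusted p = 0.0286), and Cyp4f6, with -3.08 (SE 0.77, adjusted p = 0.0218) by edgeR. That count was 0 to 3 with 1 library left out and 0 with both groups fitted alone, where Cyp4f6 did not pass the read filter and 177 genes were called in all. The median log2 fold change of the 34 genes in SAP-24h against Sham-24h was -0.04, beside -0.03 for all genes.

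Dexamethasone went with a decrease of Cyp26b1 and increases of Cyp2c22 and Cyp7b1. In DEX-6h against SAP-6h, 2 members were called, 1 in each direction (5.88% of 34, background 0.515%), and 0 to 2 with 1 library left out. Cyp26b1 fell, with a log2 fold change of -3.18 (SE 0.67, adjusted p = 0.023), and Cyp2c22 rose, with 2.89 (SE 0.68, adjusted p = 0.0379) by edgeR. In DEX-24h against SAP-24h, 5 members were called, 3 higher and 2 lower (14.7%, background 3.73%). The count was 3 with both groups fitted alone, a fit that called 221 genes in all. It was 8 with DESeq2 and 4 to 6 with 1 library left out. The background is for edgeR, and the DESeq2 count was not set against all genes. Cyp7b1, Cyp2c22 and Cyp2d3 were higher, and Cyp26b1 and Cyp4b1 lower. The median log2 fold change of the 34 genes in that comparison was 0.28, beside 0.0022 for all genes. No member had a DEX effect that differed between 6 h and 24 h at an adjusted p under 0.05 by edgeR (background 0.138%). There, 4 members had an unadjusted p under 0.05 with a 2-fold difference, and the same contrast of SAP against Sham called none (background 0.0314%, 5 members at an unadjusted p under 0.05). Both backgrounds are for adjusted calls, and the unadjusted counts were not set against all genes.

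Calls in the Emo groups against SAP came at 24 h. In Emo-6h against SAP-6h, edgeR called no member (background 0.0251%), 2 had an unadjusted p under 0.05 with a 2-fold change, and DESeq2 called 1. That background is for adjusted edgeR calls only. In Emo-24h against SAP-24h, 5 members were called (14.7%, background 3.19%). The count was 0 to 3 in the 6 fits that each left out 1 library, and 0 with these groups fitted alone, where 28 members passed the read filter and Cyp2c22 and Cyp26a1 did not. That last fit called 0 genes in all, so its count of 0 is not particular to the members. Cyp2d3, Cyp39a1 and the retinoic acid hydroxylase Cyp26a1 were higher, and Cyp2c22 and the adrenal steroid hydroxylase Cyp21a1 lower. The emodin effect differed between 24 h and 6 h for 1 member, Cyp39a1 (background 1.68%), with an interaction of 2.12 (SE 0.48, adjusted p = 0.0264) on the log2 scale by edgeR. That call was lost in 5 of 12 fits that left out 1 library (adjusted p 0.0141 to 0.112 by edgeR). The DEX and Emo comparisons share their SAP libraries, so values such as those of Cyp2d3 are not independent between them.

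The drug groups were then set against each other. In Emo-6h against DEX-6h, 3 members were called (8.82%, background 1.41%, and 0 to 2 calls with 1 library left out), with Cyp26b1 higher and Cyp7b1 and Cyp2c22 lower in Emo-6h. In Emo-24h against DEX-24h, 4 were called (11.8%, background 5.06%), with Cyp26b1 higher and Cyp7b1, Cyp2c22 and Cyp2e1 lower in Emo-24h. From 6 h to 24 h, 3 members rose with DEX (8.82%, background 7.14%), namely Cyp2e1, Cyp3a9 and Cyp7b1. With emodin, 5 were called (14.7%, background 9.41%), and 3 to 5 with 1 library left out, where 3 of 34 is close to the background. Of the 5, Cyp3a9, Cyp39a1 and Cyp4a8 rose and Cyp46a1 and Cyp2c22 fell. Averaged over the 5 treatments, 3 members differed between the times (8.82%, background 4.36%, and 1 to 4 calls with 1 library left out, the lowest without replicate 1 of Con-24h): Cyp4a8 rose, and Cyp2d5 and Cyp4f6 fell.

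**Figure D2:**
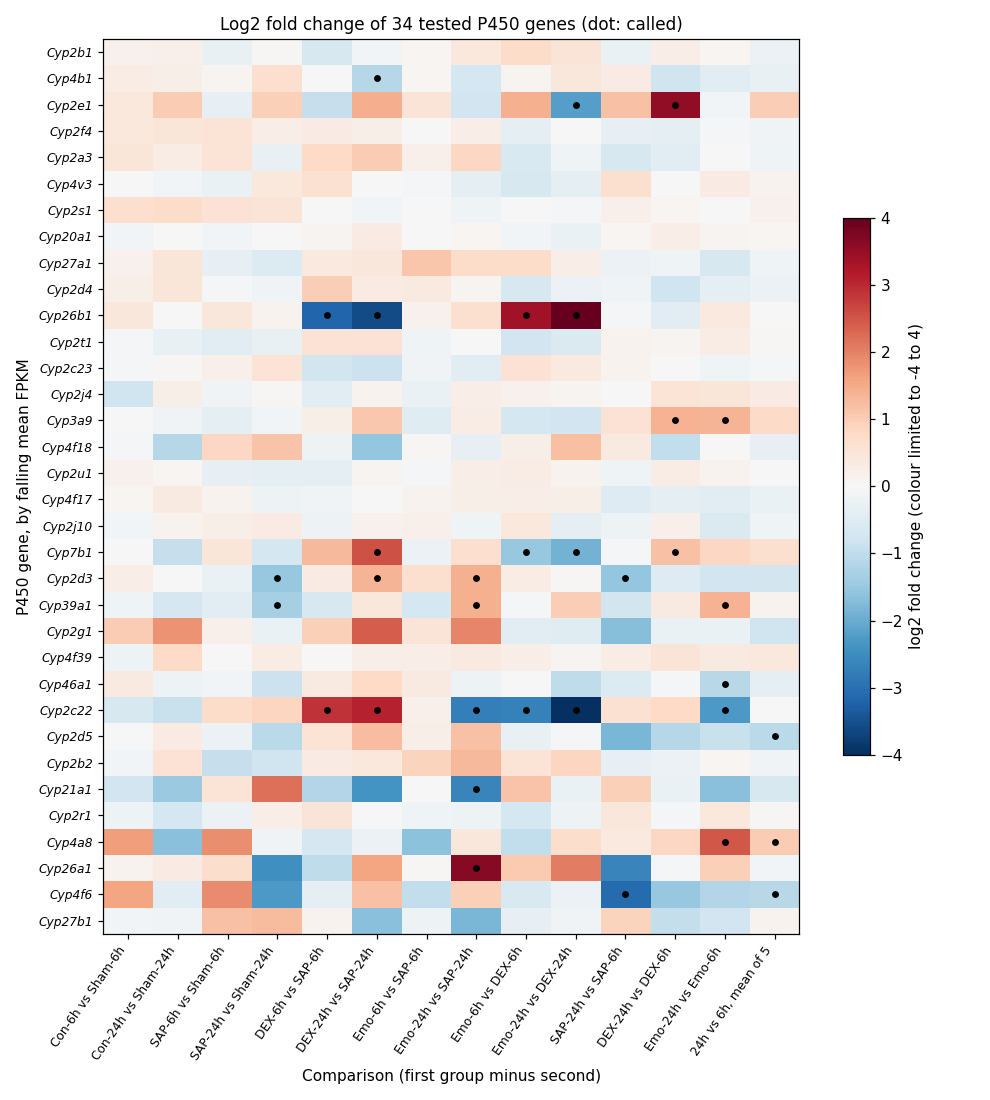
Log2 fold changes of the 34 tested P450 genes (rows, ordered by mean FPKM) in 14 comparisons (columns), red for higher and blue for lower in the first group named, with a dot where the gene was called. Calls gather in the rows of Cyp26b1, Cyp2c22, Cyp7b1 and Cyp2d3, and the first 3 columns hold none.

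Cyp26b1 (ENSRNOG00000015076, chromosome 4 in the deposited annotation) encodes an enzyme that removes retinoic acid, the vitamin A derivative that directs epithelial differentiation. At 6 h, Cyp26b1 read 9.20, 7.5 and 9.60 FPKM in Sham-6h, 18.3, 5.96 and 12.1 in Con-6h, 4.43, 13.4 and 17.8 in SAP-6h, 1.47, 1.19 and 1.23 in DEX-6h and 21.7, 13.9 and 4.44 in Emo-6h. At 24 h it read 10.8, 8.71 and 11.7 FPKM in Sham-24h, 8.22, 13.9 and 8.67 in Con-24h, 23.4, 3.43 and 3.39 in SAP-24h, 0.92, 1.11 and 0.80 in DEX-24h and 24.5, 19.5 and 11.2 in Emo-24h. The 6 DEX libraries, from 0.80 to 1.47 FPKM, lay below all 24 others, which ran from 3.39 to 24.5 FPKM. Most of the other groups overlapped, though the Emo-24h libraries lay above those of Sham-6h, and replicate 1 of SAP-24h lay far above its 2 companions. The log2 fold change in DEX-24h against SAP-24h was -3.56 (SE 0.68, adjusted p = 0.00268), and in Emo-6h and Emo-24h against DEX it was 3.35 (SE 0.67, adjusted p = 0.00933) and 4.20 (SE 0.70, adjusted p = 0.000802) by edgeR. Leaving out single libraries gave -4.0 to -1.89 at 24 h, the latter without replicate 1 of SAP-24h, and kept the call each time (adjusted p 0.00124 to 0.0376 by edgeR), but the call was lost when only DEX-24h and SAP-24h were fitted. At 6 h the values against SAP ran from -3.55 to -2.77, with adjusted p from 0.0133 to 0.112 by edgeR, and passed 0.05 only without replicate 1 of SAP-6h. The call of Emo-6h against DEX-6h was lost without replicate 1 or 3 of DEX-6h, at log2 values of 2.79 to 3.76 over all fits that left out 1 library.

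Markers of cells that could carry Cyp26b1 were compared in the same libraries. Summed fibroblast markers (6 genes) were 291 to 755 FPKM in DEX-6h and 405 to 850 FPKM in SAP-6h, and 167 to 229 FPKM in DEX-24h and 140 to 248 FPKM in SAP-24h. Summed endothelial markers (7 genes) were 1546 to 1715 FPKM in DEX-6h and 1360 to 1782 FPKM in SAP-6h, and 1123 to 1340 FPKM in DEX-24h and 1033 to 1090 FPKM in SAP-24h. Cldn5 made up the largest part of these endothelial sums. On average, Cdh5, Vwf and Tie1 were lower in DEX-24h than in SAP-24h, and Cldn5, Egfl7, Kdr and Tek were higher. The fibroblast ranges of DEX and SAP overlapped at both times, and the endothelial ranges at 6 h only. Of the 6 fibroblast genes, only Pdgfra was called in DEX-24h against SAP-24h, at -1.54 (SE 0.28, adjusted p = 0.00203) by edgeR, while Col1a1, Col1a2, Col3a1 and Dcn had log2 values of 0.25, 0.96, 0.25 and 0.05 and Lum of -0.57, none of them called. The part of these cells in the Cyp26b1 values was not tested. Cyp26b1 and Cyp2c22 were the only tested members whose 6 DEX libraries did not overlap the rest. The share of all genes tested that lay apart in this way was not counted. For Cyp26b1 and Cyp2c22, the 250 bases before the RefSeq gene starts (build GRCr8) are printed, at chr4:118616177-118616426 and chr1:248980768-248981017, both read on the minus strand. Capitals mark a match to TGACCT.
Cyp26b1: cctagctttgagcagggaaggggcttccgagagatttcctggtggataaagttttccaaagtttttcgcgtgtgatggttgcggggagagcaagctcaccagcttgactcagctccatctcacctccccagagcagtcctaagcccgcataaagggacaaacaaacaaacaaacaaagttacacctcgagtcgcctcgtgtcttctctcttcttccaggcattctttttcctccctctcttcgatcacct
Cyp2c22: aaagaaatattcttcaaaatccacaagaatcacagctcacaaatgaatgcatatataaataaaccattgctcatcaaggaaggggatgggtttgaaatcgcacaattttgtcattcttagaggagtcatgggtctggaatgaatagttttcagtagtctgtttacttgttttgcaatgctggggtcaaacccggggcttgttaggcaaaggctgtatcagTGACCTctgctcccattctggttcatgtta

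The letters AGAACA (or TGTTCT on the other strand), the core of the sequence bound by the glucocorticoid receptor, were in neither sequence. The letters AGGTCA (or TGACCT), bound by retinoic acid and related nuclear receptors, were matched in the Cyp2c22 sequence, 30 bases before the gene start, and not in that of Cyp26b1. Among all 33469 RefSeq windows of this length, 17.5% held the first motif and 14.1% the second. Of the 45 member symbols with such a window, 11 held the first and 14 the second, counting all windows of a symbol. These matches describe letters in a short window and not binding.

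The related hydroxylase Cyp26a1 was close to the limit of detection. It had 22, 18 and 3 reads in Emo-24h and 1, 0 and 2 in SAP-24h, and 0.0997 FPKM on average over all libraries. The ratio of reads per total was 16.3, with a 95% counting interval of 5.22 to 82.2 (exact, counting error only), and the fitted log2 fold change had an adjusted p of 0.0161 by edgeR. DESeq2 did not call it, and neither did the fits without replicate 1 of SAP-24h or without replicate 1 or 2 of Emo-24h. Replicate 3 of Emo-24h, with 3 reads, lay close to SAP-24h. The third gene of the family, Cyp26c1, had 27 reads in 11 of 30 libraries and was not tested.

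In the xenobiotic families, 14 of 23 genes were tested and 5 were called in 1 comparison or more, a rule that 22.5% of all genes tested met. The clearest was Cyp2c22 (ENSRNOG00000021924, chromosome 1), a member of the Cyp2c cluster, which was scarcely detected outside the DEX groups. The early Cyp2c22 values were 0.07, 0.10 and 0.08 FPKM in Sham-6h, 0.04, 0.06 and 0.06 in Con-6h, 0.16, 0.16 and 0.06 in SAP-6h, 0.82, 1.15 and 1.04 in DEX-6h and 0.18, 0.07 and 0.21 in Emo-6h. The 24 h values were 0.02, 0.26 and 0.07 FPKM in Sham-24h, 0, 0.04 and 0.15 in Con-24h, 0.18, 0.17 and 0.22 in SAP-24h, 1.91, 2.01 and 1.28 in DEX-24h and 0.02, 0 and 0.07 in Emo-24h. All 6 DEX libraries, from 0.82 to 2.01 FPKM, lay above the other 24, which did not pass 0.26 FPKM. DEX-24h held 138, 118 and 75 reads, DEX-6h 53, 68 and 68, SAP-24h 11, 11 and 13 and Emo-24h 1, 0 and 4. The log2 fold change in DEX-24h against SAP-24h was 3.08 (SE 0.65, adjusted p = 0.00555), and in Emo-24h against DEX-24h -5.81 (SE 0.81, adjusted p = 0.00016) by edgeR, and both calls held in every fit that left out 1 library. At 6 h the call against SAP was lost in all 6 such fits (log2 2.62 to 3.13, adjusted p 0.0652 to 0.195 by edgeR), and that of Emo-6h against DEX-6h, at -2.70 (SE 0.66, adjusted p = 0.0272) by edgeR, also in all 6 (log2 -3.02 to -2.33).

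Cyp2c22 was also lower in Emo-24h than in SAP-24h, at -2.73 (SE 0.85, adjusted p = 0.0465), and lower in Emo-24h than in Emo-6h, at -2.30 (SE 0.87, adjusted p = 0.0433) by edgeR. These calls rest on 4 reads or fewer in each Emo-24h library. The first was lost in 5 of 6 fits that left out 1 library and held only without replicate 3 of Emo-24h. The second was lost in 4 of 6, and held without replicate 2 of Emo-6h and without replicate 3 of Emo-24h. Both were lost also without the read filter (adjusted p = 0.0547 and 0.0528 by edgeR). Of the other Cyp2c genes, Cyp2c23 had 7376 reads in all, while Cyp2c11, Cyp2c12 and the better-read Cyp2c13 gene had 39, 12 and 10. Since the authors discarded reads that map to several places, counts in these gene clusters are uncertain.

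**Figure D3:**
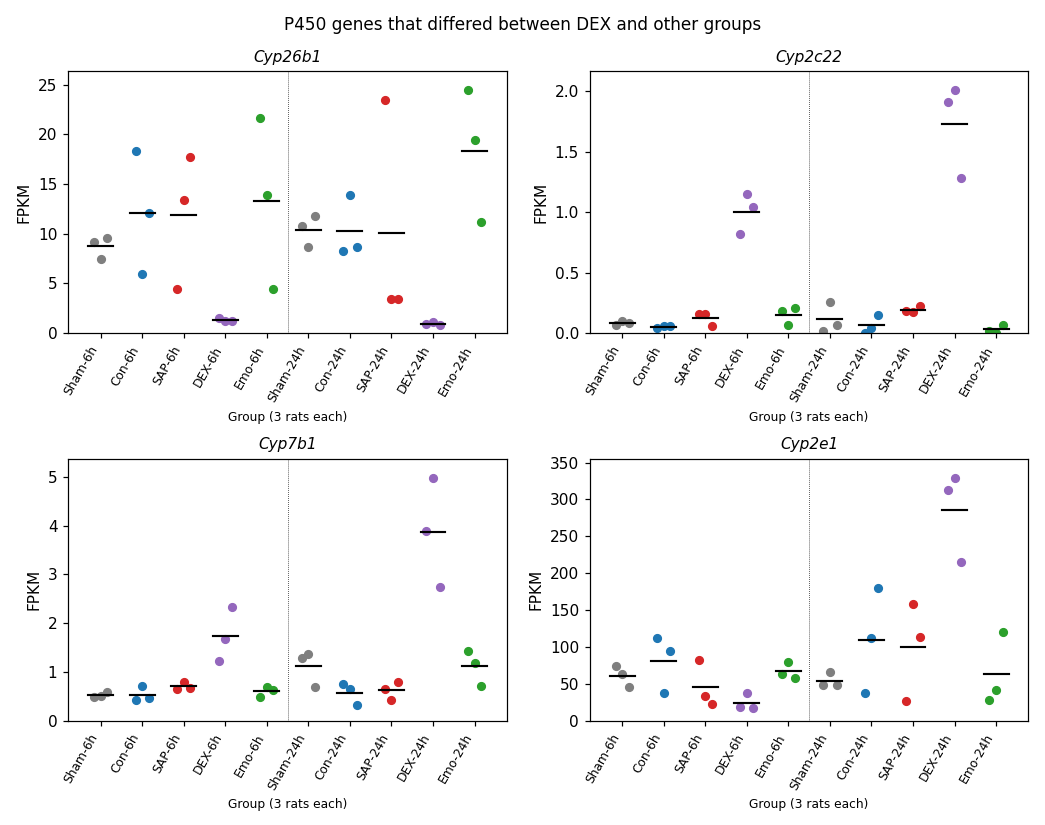
FPKM of Cyp26b1, Cyp2c22, Cyp7b1 and Cyp2e1 in each of 3 rats per group (points), with group means as black bars and the 6 h groups to the left of the dotted line. The DEX libraries of Cyp26b1 lie at 0.80 to 1.47 FPKM, those of Cyp2c22 at 0.82 to 2.01 FPKM, and the DEX-24h libraries of Cyp2e1 at 215 to 329 FPKM.

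Cyp2e1 (ENSRNOG00000012458, chromosome 1) rose from 6 h to 24 h in DEX rats. Cyp2e1 levels at 6 h were 74.9, 62.8 and 46.04 FPKM in Sham-6h, 112, 38.2 and 94.1 in Con-6h, 81.9, 33.4 and 23.2 in SAP-6h, 19.3, 38.0 and 16.9 in DEX-6h and 63.5, 80.0 and 58.2 in Emo-6h. At the later time they were 49.0, 65.6 and 48.8 FPKM in Sham-24h, 37.5, 113 and 180 in Con-24h, 27.0, 158 and 114 in SAP-24h, 313, 329 and 215 in DEX-24h and 28.1, 41.2 and 120 in Emo-24h. The 3 DEX-24h libraries lay above all 27 others, whose highest was 180 FPKM in Con-24h, and 2 of the 3 DEX-6h libraries were the lowest of all 30. Within SAP-24h, Con-24h and Emo-24h the libraries differed by over 4-fold. The log2 fold change from DEX-6h to DEX-24h was 3.53 (SE 0.67, adjusted p = 0.000822) by edgeR, and it was 3.3 to 4.0 with any 1 library left out. In Emo-24h against DEX-24h it was -2.21 (SE 0.63, adjusted p = 0.0298) by edgeR, a call lost without replicate 1 or 2 of DEX-24h or of Emo-24h. DEX-24h against SAP-24h gave 1.46 (SE 0.62, adjusted p = 0.154) and the interaction with time 2.37 (SE 0.87, adjusted p = 0.224) by edgeR, so neither was called. Liver and fat are rich in Cyp2e1. Summed liver markers were 8.74 to 16.5 FPKM in DEX-24h and 9.42 to 12.9 FPKM in DEX-6h, and summed fat markers 40.8 to 58.8 FPKM and 41.2 to 79.4 FPKM. The ranges of the DEX groups overlapped for both lists, and their part in the Cyp2e1 values was not tested.

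Cyp2b1 (ENSRNOG00000033680) had the highest level of the family in lung. For Cyp2b1, the 6 h libraries had 336, 365 and 306 FPKM in Sham-6h, 410, 394 and 351 in Con-6h, 237, 207 and 349 in SAP-6h, 98.7, 210 and 202 in DEX-6h and 250, 379 and 219 in Emo-6h. Those of 24 h had 231, 131 and 281 FPKM in Sham-24h, 213, 267 and 258 in Con-24h, 210, 198 and 202 in SAP-24h, 231, 241 and 129 in DEX-24h and 293, 381 and 240 in Emo-24h. The 6 h libraries of Sham and Con, all at 306 FPKM or above, did not overlap their 24 h libraries, all at 281 FPKM or below. The DEX-6h libraries were lower than those of Sham-6h and Con-6h and overlapped those of SAP-6h. Cyp2b1 varied among the 10 groups (adjusted p = 0.0363 by edgeR), but none of the pairs compared was called. DEX-6h against SAP-6h was -0.64 (SE 0.28, adjusted p = 0.344) by edgeR. Sham-6h against Sham-24h, Con-6h against Con-24h and DEX-6h against Sham-6h or Con-6h were not tested. Cyp2b2, a near-identical copy, averaged 0.19 FPKM, and the division of reads between the copies is uncertain. The deposited annotation places Cyp2b1 on chromosome 7 and RefSeq (GRCr8) on chromosome 1.

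**Figure D4:**
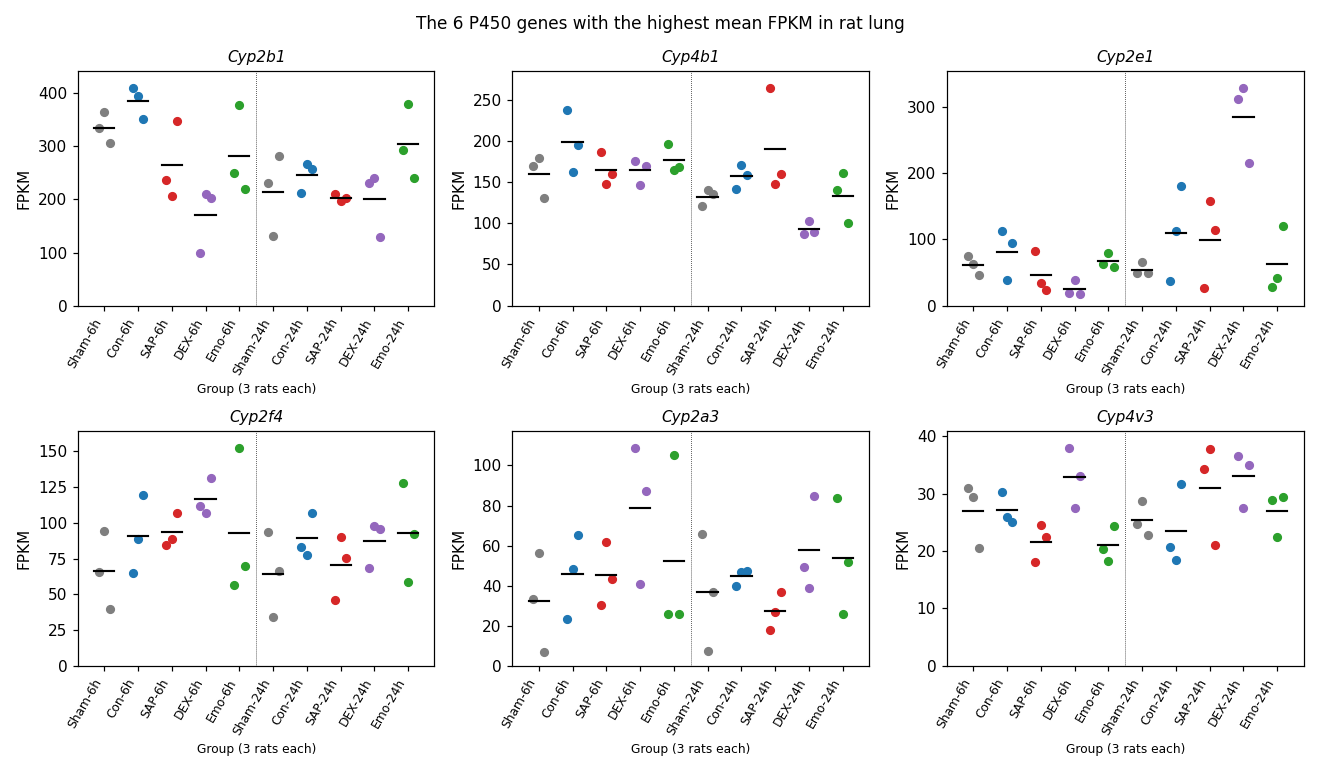
FPKM of the 6 P450 genes with the highest means in each of 3 rats per group (points), with group means as black bars, from 0 on each axis. Cyp4b1 in DEX-24h (86.8 to 103 FPKM) and Cyp2e1 in DEX-24h (215 to 329 FPKM) stand apart from most other groups, while Cyp2f4 and Cyp2a3 vary mainly between rats.

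Cyp2f4 (ENSRNOG00000032805, chromosome 1), the club cell naphthalene oxidase, did not vary detectably among groups. Expression of Cyp2f4 at 6 h was 65.7, 94.1 and 39.4 FPKM in Sham-6h, 64.6, 88.6 and 120 in Con-6h, 84.4, 89.0 and 107 in SAP-6h, 112, 107 and 132 in DEX-6h and 56.6, 152 and 70.0 in Emo-6h. Expression at 24 h was 93.6, 34.1 and 66.0 FPKM in Sham-24h, 83.3, 77.2 and 107 in Con-24h, 46.2, 90.1 and 75.2 in SAP-24h, 68.5, 97.7 and 96.0 in DEX-24h and 128, 58.3 and 92.5 in Emo-24h. The lowest libraries were replicate 2 of Sham-24h and replicate 3 of Sham-6h, the highest replicate 2 of Emo-6h, and most groups overlapped. The test over 10 groups gave an adjusted p of 0.452 by edgeR.

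Cyp2a3 (ENSRNOG00000020817, chromosome 1) is an airway enzyme that oxidises nicotine-like compounds and nitrosamines. It had the highest SD of log2 FPKM within groups among the members with at least 1 FPKM. Single rats killed at 6 h had Cyp2a3 values of 33.5, 56.3 and 6.68 FPKM in Sham-6h, 23.4, 48.5 and 65.2 in Con-6h, 30.2, 61.8 and 43.2 in SAP-6h, 109, 40.7 and 87.2 in DEX-6h and 26.0, 105 and 26.1 in Emo-6h. Rats killed at 24 h had 65.7, 7.62 and 36.8 FPKM in Sham-24h, 39.7, 47.0 and 47.6 in Con-24h, 17.9, 26.7 and 37.1 in SAP-24h, 49.5, 38.6 and 84.6 in DEX-24h and 84.0, 25.8 and 51.7 in Emo-24h. The same 2 Sham libraries were lowest, at 6.68 and 7.62 FPKM, and replicate 1 of DEX-6h was highest, at 109 FPKM. The test over 10 groups gave an adjusted p of 0.606 by edgeR.

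Cyp2a3 and Cyp2f4 rose and fell together between rats of the same group. Across the 30 libraries, the deviations of log2 FPKM from the group means had a Pearson r of 0.869 (permutation p = 5e-05, adjusted p = 0.0105 over 210 pairs of the 21 members) and a Spearman rho of 0.82 (adjusted p = 0.0273, permutation). Without the 2 libraries farthest from the median of Cyp2f4, r was 0.825. It was the only one of the 210 pairs with an adjusted p under 0.05 in a permutation test of 100000 reorderings within groups. Both genes lie on chromosome 1 in RefSeq (GRCr8), with 2 protein-coding genes between them, Cyp2a1 and Cyp2a2. The deviations also followed airway markers, in 4 gene and list pairs that were chosen after the values were seen and adjusted over 5 pairs, the other being Cyp4f18 with neutrophil markers. Against summed club cell markers (7 genes), Cyp2a3 had r = 0.729 and rho = 0.668 (adjusted permutation p = 0.00335 and 0.00532). Cyp2f4 had r = 0.688 and rho = 0.66 (adjusted permutation p = 0.00335 and 0.00532). Without the 2 libraries farthest from the median of the marker list, r was 0.635 for Cyp2a3 and 0.609 for Cyp2f4. Scgb1a1 made up nearly all of the club cell sums, so these values rest mainly on that transcript. Against summed ciliated cell markers (6 genes found), r was 0.547 for Cyp2a3 (rho 0.592, adjusted permutation p = 0.00267 and 0.00417) and 0.594 for Cyp2f4 (rho 0.652, adjusted permutation p = 0.00135 and 0.00245), or 0.596 and 0.675 without 2 libraries. The amount of airway in each piece of lung was not measured, and its part in these values was not tested.

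**Figure D5:**
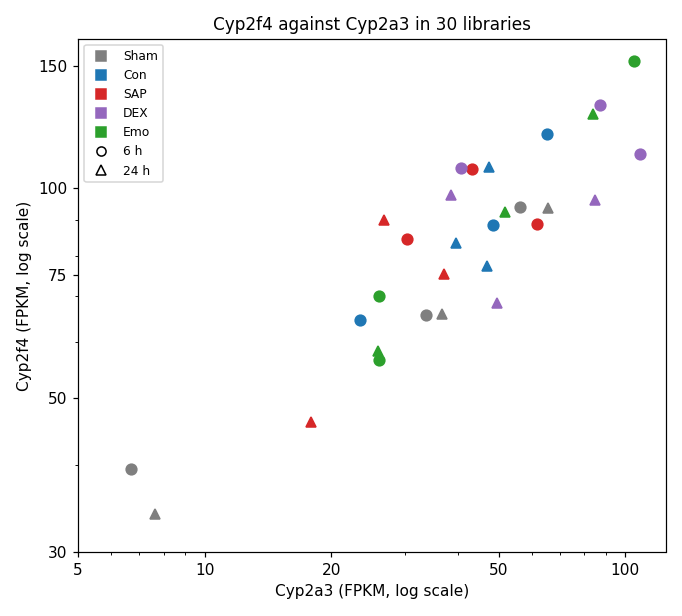
Cyp2f4 against Cyp2a3 in FPKM, both on log axes, for 30 libraries, coloured by treatment, with circles for 6 h and triangles for 24 h. Points of every treatment lie along 1 rising band, from 6.68 FPKM of Cyp2a3 in a Sham library to 109 FPKM in a DEX library.

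Cyp2d3 (ENSRNOG00000029179, chromosome 7), of a drug-oxidising family, was lowest in untreated pancreatitis at 24 h. Cyp2d3 FPKM values in the 6 h groups were 0.81, 1.04 and 1.70 in Sham-6h, 1.35, 1.94 and 1.07 in Con-6h, 1.25, 1.07 and 0.53 in SAP-6h, 0.99, 1.29 and 1.38 in DEX-6h and 0.96, 1.19 and 2.35 in Emo-6h. In the 24 h groups they were 0.91, 0.91 and 1.05 in Sham-24h, 0.85, 1.19 and 0.80 in Con-24h, 0.31, 0.44 and 0.15 in SAP-24h, 0.76, 1.02 and 0.74 in DEX-24h and 1.25, 0.56 and 0.93 in Emo-24h. The SAP-24h libraries, from 0.15 to 0.44 FPKM, lay below all 27 others, whose lowest was 0.53 FPKM. DEX-24h against SAP-24h gave 1.37 (SE 0.41, adjusted p = 0.0399) and Emo-24h against SAP-24h 1.42 (SE 0.41, adjusted p = 0.0346) by edgeR. All 4 calls of Cyp2d3 use the same SAP-24h libraries, and each was lost without replicate 1 or replicate 3 of SAP-24h, with log2 values from -1.85 to -1.19 against Sham-24h, -1.88 to -1.22 against SAP-6h, 1.04 to 1.71 for DEX and 1.09 to 1.74 for emodin. All 4 were lost when only the compared groups were fitted. For Emo-24h against SAP-24h and SAP-24h against Sham-24h those fits called 0 and 3 genes in all, so these losses are not particular to Cyp2d3. For DEX-24h against SAP-24h and SAP-24h against SAP-6h they called 221 and 177. The DEX call was lost also without any 1 DEX-24h library, the emodin call without replicate 1 or 3 of Emo-24h and the call against SAP-6h without replicate 1 or 2 of SAP-6h. Summed neutrophil markers were on average highest in SAP-24h, at 4549 to 16481 FPKM against 198 to 9268 FPKM in Sham-24h, 2007 to 4467 FPKM in SAP-6h, 1075 to 3027 FPKM in DEX-24h and 4326 to 6605 FPKM in Emo-24h. The ranges of Sham-24h and Emo-24h overlapped that of SAP-24h, and the part of neutrophils in the Cyp2d3 values was not tested.

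The related Cyp2d4 was higher in DEX-6h. Its group means were 8.13 ± 2.41 FPKM (SD, n = 3) in SAP-6h and 16.2 ± 2.79 FPKM in DEX-6h, with all DEX-6h libraries above all SAP-6h libraries, and the log2 fold change was 0.98 (SE 0.21, adjusted p = 0.0266) by edgeR, just under the 2-fold limit. Cyp2d5 was low, with 0 to 15 reads in the 24 h libraries and 1 to 34 in the 6 h libraries, and its mean difference between the times was -1.09 (SE 0.37, adjusted p = 0.0181) by edgeR. That call was lost without replicate 1 of SAP-6h, replicate 1 of Con-24h or replicate 3 of SAP-24h (log2 -1.62 to -0.93 over 30 fits). Reads of Cyp2d copies may be divided unevenly.

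Cyp3a9 belongs to the steroid- and drug-oxidising family 3, and 1 of the 2 genes of that symbol (ENSRNOG00000046643, chromosome 12) carried nearly all reads. At 6 h, Cyp3a9 read 2.51, 3.72 and 1.65 FPKM in Sham-6h, 3.83, 2.34 and 1.61 in Con-6h, 1.84, 2.22 and 1.91 in SAP-6h, 3.18, 1.45 and 2.47 in DEX-6h and 1.30, 1.72 and 1.32 in Emo-6h. At 24 h it read 2.92, 3.28 and 3.48 FPKM in Sham-24h, 1.19, 2.57 and 5.11 in Con-24h, 3.29, 2.71 and 2.20 in SAP-24h, 5.72, 5.97 and 6.80 in DEX-24h and 4.07, 2.53 and 4.75 in Emo-24h. The DEX-24h libraries lay above all others, the highest of which was 5.11 FPKM in Con-24h, and the Emo-24h libraries above those of Emo-6h. The log2 fold change from 6 h to 24 h was 1.397 (SE 0.39, adjusted p = 0.0117) with DEX and 1.35 (SE 0.40, adjusted p = 0.0117) with emodin by edgeR. The first was lost without replicate 2 of DEX-6h (1.14 to 1.68 over 6 fits) and the second without replicate 3 of Emo-24h (1.09 to 1.56). DEX-24h against SAP-24h was 1.07 (SE 0.39, adjusted p = 0.0913) by edgeR and was not called.

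Of the 18 genes for fatty acids and eicosanoids, 10 were tested and 3 called in 1 comparison or more (background 22.5%). Cyp4b1 (ENSRNOG00000055078, chromosome 5), the most abundant of them, was lowest in DEX-24h. The early Cyp4b1 values were 170, 180 and 131 FPKM in Sham-6h, 238, 163 and 195 in Con-6h, 187, 148 and 160 in SAP-6h, 176, 147 and 170 in DEX-6h and 196, 165 and 168 in Emo-6h. The 24 h values were 121, 140 and 136 FPKM in Sham-24h, 142, 172 and 159 in Con-24h, 265, 147 and 161 in SAP-24h, 86.8, 103 and 89.1 in DEX-24h and 140, 161 and 99.9 in Emo-24h. The DEX-24h libraries, from 86.8 to 103 FPKM, lay below all others except replicate 3 of Emo-24h, at 99.9 FPKM, and those of DEX-6h overlapped SAP-6h. The log2 fold change in DEX-24h against SAP-24h was -1.15 (SE 0.21, adjusted p = 0.00214) by edgeR. Without replicate 1 of SAP-24h, at 265 FPKM, it was -0.77, under the 2-fold limit, the call was lost with both groups fitted alone, and the adjusted p over the 6 fits was 0.00112 to 0.0198 by edgeR. The interaction of DEX with time was -1.13 (SE 0.30, adjusted p = 0.101) by edgeR and was not called. Emo-24h against SAP-24h was -0.70 (SE 0.21, adjusted p = 0.042) by edgeR, also under the 2-fold limit. That value used the same SAP-24h libraries, with replicate 1 at 265 FPKM. SAP-24h against Sham-24h was 0.67 (SE 0.21, adjusted p = 0.0376) by edgeR, under that limit too. Summed club cell markers were 25523 to 36368 FPKM in DEX-24h and 37499 to 47265 FPKM in SAP-24h, and Scgb1a1 made up nearly all of these sums. On average, Scgb1a1 and Aldh3a1 were lower in DEX-24h than in SAP-24h. Scgb3a1, Scgb3a2, Bpifa1, Bpifb1 and Muc5b were higher. Summed type 2 cell markers overlapped, at 26889 to 38362 and 28493 to 48229 FPKM. The part of these cells in the Cyp4b1 values was not tested.

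Cyp4v3 (ENSRNOG00000042426, chromosome 16), a hydroxylase of medium-chain fatty acids, stayed within a narrow range. Cyp4v3 levels at 6 h were 31.0, 29.3 and 20.5 FPKM in Sham-6h, 30.3, 26.0 and 25.02 in Con-6h, 18.1, 24.5 and 22.4 in SAP-6h, 37.9, 27.6 and 33.1 in DEX-6h and 20.4, 18.3 and 24.3 in Emo-6h. At the later time they were 24.6, 28.8 and 22.8 FPKM in Sham-24h, 20.7, 18.4 and 31.7 in Con-24h, 34.3, 37.8 and 21.02 in SAP-24h, 36.6, 27.4 and 34.95 in DEX-24h and 28.9, 22.5 and 29.5 in Emo-24h. The DEX-6h libraries lay above those of SAP-6h and Emo-6h, and the 24 h groups overlapped. It varied among the 10 groups (adjusted p = 0.0484 by edgeR) with no call in the pairs compared.

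Cyp4f18, which inactivates leukotrienes in neutrophils, also varied among groups (adjusted p = 0.0255 by edgeR) with no call in the pairs compared. Its means were 4.70 ± 1.55 FPKM (SD, n = 3) in SAP-24h, 1.70 ± 0.51 in DEX-24h, 4.07 ± 0.75 in Emo-24h, 2.31 ± 2.06 in Sham-24h and 1.05 ± 0.39 in Con-24h. DEX-24h against SAP-24h was -1.54 (SE 0.54, adjusted p = 0.0813) by edgeR. Its deviations from the group means followed summed neutrophil markers (6 genes), with r = 0.758 and rho = 0.577 (adjusted permutation p = 0.011 and 0.0187, over the same 5 pairs) and r = 0.586 without 2 libraries. Cyp2u1 varied too (adjusted p = 0.0121 by edgeR), from 1.95 ± 0.22 FPKM in DEX-6h to 3.68 ± 0.44 FPKM in Con-6h. These groups were not compared with each other, and no comparison called it.

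The 2 other called genes of this role had few reads. Cyp4a8 had 21, 19 and 28 reads in Emo-24h and 2, 4 and 6 in Emo-6h, so that the groups did not overlap, and the log2 fold change was 2.48 (SE 0.70, adjusted p = 0.00852) by edgeR, with 2.20 to 2.88 when 1 library was left out. Averaged over treatments, its time difference was 1.03 (SE 0.30, adjusted p = 0.00789) by edgeR, and 13 of 30 fits that left out 1 library put it under 2-fold (0.82 to 1.22). Cyp4f6 had 0, 3 and 2 reads in SAP-24h and 19, 19 and 5 in SAP-6h. Its call there was lost without replicate 1 of SAP-6h or replicate 1 or 3 of SAP-24h (log2 -3.71 to -2.57). Averaged over treatments its time difference was -1.11 (SE 0.32, adjusted p = 0.00674) by edgeR, lost only without replicate 1 of Con-24h, at -1.24 to -0.997 over 30 fits. Cyp4a and Cyp4f genes have close copies, and their reads may be shared.

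Of the 5 genes for cholesterol and bile acids, 4 were tested and 3 called in 1 comparison or more (background 22.5%). Cyp7b1 (ENSRNOG00000009730, chromosome 2), which hydroxylates oxysterols and neutral steroids, was highest with DEX. For Cyp7b1, the 6 h libraries had 0.48, 0.51 and 0.59 FPKM in Sham-6h, 0.42, 0.72 and 0.47 in Con-6h, 0.65, 0.80 and 0.68 in SAP-6h, 1.23, 1.67 and 2.34 in DEX-6h and 0.48, 0.70 and 0.63 in Emo-6h. Those of 24 h had 1.28, 1.36 and 0.70 FPKM in Sham-24h, 0.75, 0.65 and 0.33 in Con-24h, 0.66, 0.42 and 0.80 in SAP-24h, 3.89, 4.98 and 2.75 in DEX-24h and 1.44, 1.18 and 0.72 in Emo-24h. At each time the 3 DEX libraries lay above all libraries of the other groups, and those of DEX-24h lay above those of DEX-6h. The log2 fold change in DEX-24h against SAP-24h was 2.54 (SE 0.33, adjusted p = 0.000105) by edgeR, with 2.30 to 2.74 when 1 library was left out. DEX-6h against SAP-6h gave 1.28 (SE 0.32, adjusted p = 0.0579) by edgeR, which was not called. Emo-6h and Emo-24h against DEX gave -1.52 (SE 0.33, adjusted p = 0.0135) and -1.88 (SE 0.32, adjusted p = 0.00105), and DEX-24h against DEX-6h 1.18 (SE 0.32, adjusted p = 0.0088) by edgeR. The call of Emo-6h against DEX-6h was lost without replicate 3 of DEX-6h or replicate 1 of Emo-6h (log2 -1.73 to -1.30) and with both groups fitted alone, and that of DEX over time without replicate 1 of DEX-6h or replicate 2 of DEX-24h (0.94 to 1.41).

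Cyp39a1 (ENSRNOG00000010519, chromosome 9), another oxysterol hydroxylase, was lower in SAP-24h than in Sham-24h and Emo-24h. Expression of Cyp39a1 at 6 h was 1.66, 1.30 and 1.01 FPKM in Sham-6h, 1.46, 1.33 and 0.83 in Con-6h, 0.82, 1.31 and 0.63 in SAP-6h, 0.62, 0.67 and 0.51 in DEX-6h and 0.44, 0.72 and 0.58 in Emo-6h. Expression at 24 h was 1.02, 1.76 and 1.46 FPKM in Sham-24h, 0.45, 1.22 and 1.00 in Con-24h, 0.67, 0.33 and 0.55 in SAP-24h, 0.70, 0.77 and 0.80 in DEX-24h and 1.75, 1.73 and 1.20 in Emo-24h. At 24 h the SAP libraries lay below those of Sham and Emo, which overlapped each other. The SAP-24h libraries overlapped those of Con-24h. At 6 h the Emo libraries overlapped those of SAP and lay below those of Sham. Emo-24h against SAP-24h gave 1.43 (SE 0.34, adjusted p = 0.0155) and Emo-24h against Emo-6h 1.38 (SE 0.34, adjusted p = 0.00363) by edgeR. The SAP call against Sham was lost without replicate 2 of either group (log2 -1.61 to -1.05), the emodin call without replicate 2 of SAP-24h or replicate 1 or 2 of Emo-24h (1.15 to 1.71), and the call over time in no fit (1.22 to 1.52). The SAP and emodin calls were lost also when only the compared groups were fitted.

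The brain cholesterol hydroxylase Cyp46a1 fell from Emo-6h to Emo-24h, from 67, 48 and 55 to 27, 23 and 29 reads, at a log2 fold change of -1.11 (SE 0.37, adjusted p = 0.0257) by edgeR. That call was lost without replicate 1 of Emo-6h or replicate 1 or 2 of Emo-24h (-1.28 to -0.92). Cyp27a1 varied among groups (adjusted p = 0.0209 by edgeR), from 6.66 ± 2.19 FPKM (SD, n = 3) in SAP-24h to 18.3 ± 10.7 FPKM in Emo-6h, where replicate 3 reached 30.6 FPKM, and no comparison called it. Cyp7a1, the bile acid enzyme of liver, had 4 reads in 30 libraries.

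Steroid and vitamin D enzymes were near the limit of detection. Of 5 steroid genes, only Cyp21a1 was tested, with 79, 16 and 20 reads in SAP-24h and 5, 6 and 8 in Emo-24h. The groups did not overlap, and the log2 fold change was -2.65 (SE 0.80, adjusted p = 0.0425) by edgeR. Its call was lost without replicate 1 of SAP-24h or any 1 library of Emo-24h (-3.07 to -1.47). It was lost also with both groups fitted alone, a fit that called 0 genes in all. Summed adrenal cortex markers (4 genes) were 0.61 to 1.84 FPKM in SAP-24h and 2.22 to 3.40 FPKM in Emo-24h. Star and Mc2r made up nearly all of these sums, with Hsd3b1 and Nr5a1 at or below 0.013 FPKM on average in both groups, and the part of adrenal tissue in the Cyp21a1 values was not tested. Of the vitamin D genes, Cyp2r1 (0.17 FPKM on average) and Cyp27b1 (0.0707 FPKM) were tested without a call or a difference among groups, and Cyp24a1 had 1 read in all.

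Genes that work with P450 enzymes were followed as a list of redox partners, lipid and xenobiotic receptors, epoxide hydrolases and P450 enzymes under other names. Of 33 genes found, 30 were tested. The list had no call in 10 of the 14 comparisons, at medians of log2 fold change from -0.11 to 0.17. In the other 4, its share called was 3.33% in DEX-24h against SAP-24h (background 3.73%), 10% in Emo-24h against DEX-24h (background 5.06%), 6.67% over time with DEX (background 7.14%) and 10% over time with emodin (background 9.41%), so 3 of the 4 shares lay near the background. Fdx1, which feeds electrons to mitochondrial P450 enzymes, rose in DEX-24h against SAP-24h, at 1.12 (SE 0.31, adjusted p = 0.0299), and was lower in Emo-24h than in DEX-24h, at -1.41 (SE 0.32, adjusted p = 0.00697) by edgeR. Por, the reductase of microsomal P450 enzymes, fell from 6 h to 24 h with DEX, at -1.10 (SE 0.21, adjusted p = 0.000785), and with emodin, at -1.42 (SE 0.21, adjusted p = 5.93e-05) by edgeR. Cyp51, which makes sterols, rose over time with DEX, at 1.21 (SE 0.18, adjusted p = 8.41e-05), and was lower in Emo-24h than in DEX-24h, at -1.06 (SE 0.18, adjusted p = 0.000713) by edgeR. Ephx3, an epoxide hydrolase, was higher in Emo-24h than in DEX-24h and in Emo-6h, at 2.37 (SE 0.47, adjusted p = 0.00295) and 1.59 (SE 0.45, adjusted p = 0.00945) by edgeR. Of 2 genes with the symbol of the glucocorticoid receptor, Nr3c1, 1 (ENSRNOG00000014096) rose with emodin over time, at 1.01 (SE 0.12, adjusted p = 1.81e-05), and the other (ENSRNOG00000048800) had 0.26 (SE 0.22, adjusted p = 0.375) by edgeR. The drug receptors of liver, Nr1i2 and Nr1i3, averaged at most 0.11 and 0.01 FPKM in any group.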

How the data were processed

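RNA-seq libraries (poly(A)-selected, strand-specific, paired-end) were made from lung tissue of 30 rats, 3 in each of 10 groups. The authors trimmed reads with FASTX-Toolkit 0.0.13 and mapped them with TopHat2 to the Ensembl version 6 rat genome, allowing 2 mismatches and discarding reads that map to several places, which lowers values of near-identical genes. The program that counted reads is not given in the sources used here. The authors deposited read counts per gene, used for all tests, and FPKM values per gene, used for levels. The depth was 16813949 to 34692306 reads on genes per library, and intervals cover counting error only.

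Genes were kept with filterByExpr (minimum count 10, minimum total 15), scaled by TMM and fitted with edgeR 4.0.16 (R 4.3.3) as 1 model of 10 groups with 20 residual degrees of freedom, and p-values were adjusted by the Benjamini-Hochberg method over 15934 genes. Genes were called where the adjusted p was below 0.05 and the change at least 2-fold. The p-values rest on the spread between rats of the same group, estimated over all 10 groups together. They do not measure the spread in the compared groups alone. Fold changes were fitted to counts, with a small prior count. Correlations of log2 FPKM deviations from group means used 100000 permutations within groups (numpy 2.4.6). Scripts were tested on simulated data. Alternatives were RLE scaling, DESeq2 1.42.0, no count filter, unadjusted p-values, a replicate block, the compared groups alone and each library left out.

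Every member with a mean of at least 1 FPKM and every called member was named, and values in each library were given for the 6 highest and, among those reaching 0.5 FPKM in a group, the 8 called most often. Members and gene lists were chosen with earlier results of these data known.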

Additional observations from a re-analysis of the deposited data

Results flagged for a closer look

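The effect of emodin on Cyp39a1 differed between the times. Emo against SAP was 2.12 higher on the log2 scale at 24 h than at 6 h (edgeR, adjusted p = 0.0264, n = 3 rats per group), and the value was 1.80 to 2.40 with any 1 of 12 libraries left out. The call was lost in 5 of those 12 fits, namely without replicate 2 of SAP-6h, replicate 1 or 3 of Emo-6h, or replicate 1 or 2 of Emo-24h (edgeR, adjusted p 0.0141 to 0.112 over the 12).

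Cyp4f6 had all SAP libraries above the Sham libraries at 6 h and all SAP libraries below them at 24 h. The effect at 24 h was lower by a log2 difference of -4.19, which did not pass the adjustment over all genes (edgeR, SE 1.05, adjusted p = 0.139). The values rest on 0.11 to 0.26 FPKM in SAP-6h, 0.03 to 0.08 FPKM in Sham-6h, 0 to 0.04 FPKM in SAP-24h and 0.06 to 0.14 FPKM in Sham-24h.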

How the results depend on the processing

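RLE scaling and the absence of a count filter left every count of called genes within 1.5 times its value. With unadjusted p-values, Con-6h, Con-24h and SAP-6h against Sham had 2 calls each, SAP-24h against Sham-24h 6, DEX-24h against SAP-24h 10, Emo-6h against SAP-6h 2, Emo-24h against DEX-24h 7 and SAP-24h against SAP-6h 4. These unadjusted counts were not set against all genes. With the compared groups alone, SAP-24h against Sham-24h, Emo-24h against SAP-24h and SAP-24h against SAP-6h had 0 calls and DEX-24h against SAP-24h 3. In that order, those fits called 3, 0, 177 and 221 genes in all. DESeq2 called 8 in DEX-24h against SAP-24h and 1 in Emo-6h against SAP-6h, counts that were not set against all genes either. Same-numbered rats did not deviate together (median r 0.0219, -0.0354 and -0.0143, against 0.0106 for different numbers), so the numbers do not pair them. With a replicate block, DEX-6h against SAP-6h had 1 call and Emo-24h against SAP-24h 3. With each library left out, counts ranged from 0 to 2 in DEX-6h against SAP-6h and in Emo-6h against DEX-6h, 0 to 3 in Emo-24h against SAP-24h and SAP-24h against SAP-6h, 1 to 4 in SAP-24h against Sham-24h and for the averaged time difference, 4 to 6 in DEX-24h against SAP-24h, 3 to 5 in Emo-24h against DEX-24h and over time with emodin, 2 to 3 over time with DEX, and 15 to 20 for any difference among groups. Of 35 gene calls under the alternatives other than unadjusted p-values, which a call always passes, 344 of 455 values kept the call, 111 lost it and 0 changed direction, and 8 calls were lost nowhere. Groups fitted alone had fewer members past the read filter. The causes were not tested. Depth limits the members under 0.1 FPKM, whose calls rest on few reads.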
